A study of Mus musculus with 26 samples.

Results

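What RGRN-305 left of an MC903 dermatitis was read by comparing ears given MC903 and RGRN-305 with vehicle ears over all genes. The comparison takes 14 of the 26 libraries of the study, with 8 RGRN-305 mice and 6 vehicle mice, and 20167 of the 57010 genes in the count table were tested. All mice were wild-type female Balb/cAnNRj mice aged 8 weeks, an inbred strain, and each library was the RNA of 1 mouse from 1 punch biopsy of the whole ear taken on day 9. RGRN-305 mice received 1 nmol of MC903 a day for 6 days and 1 mg of topical RGRN-305 a day. MC903 mice received the same MC903 and the drug-vehicle, ethanol (n = 8). Dexamethasone mice received the same MC903 and 20 nmol of topical dexamethasone a day (n = 4). Vehicle mice received the vehicle of MC903 and the drug-vehicle. No group received RGRN-305 without MC903, so an effect of the drug on unchallenged skin cannot be told apart from its effect on MC903-treated skin.

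MC903, or calcipotriol, is a vitamin D analogue that acts on the vitamin D receptor of keratinocytes, which then release the alarmin TSLP and draw in type 2 immune cells, basophils and neutrophils. HSP90 is a chaperone that holds many kinases, receptors and transcription factors in an active fold, and inhibitors of its ATP site release the factor HSF1, which drives genes of the HSP70 and HSP90 families. The genes that MC903 changed are called the MC903 program below. The question was which part of it remained under the HSP90 inhibitor, which part stood at vehicle level, and which changes came only with the drug.

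Total counts were 20020975 to 26516232 per library in RGRN-305 mice and 13695023 to 35130972 in vehicle mice. Levels are in CPM, counts relative to the TMM-scaled size of their library, given as the lowest, the highest and the median of a group. Differences are log2 fold changes with their standard error from 1 edgeR quasi-likelihood fit of all 26 libraries, and p-values are Benjamini-Hochberg adjusted values of edgeR. A gene was called where the adjusted p was below 0.05 and the log2 fold change was beyond 1.5 in either direction, and passed where the adjusted p alone was below 0.05. The epidermal keratin Krt10 was at 25049 to 35710 CPM (median 30881) in RGRN-305 mice and 16073 to 22139 CPM (median 18525) in vehicle mice, and genes of auricular cartilage, muscle, fat and nerve were measured in both groups. The median log2 fold change over all genes was 0.00139.

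The drug left the larger part of the program away from vehicle level. Against vehicle, 802 genes were called higher in RGRN-305 mice, 3.98% of the genes tested, and 812 were called lower, 4.03%. In MC903 mice these counts were 1504 (7.46%) and 1528 (7.58%). Both comparisons used the same vehicle mice. Of the 1504 genes raised by MC903, 725 (48.2%) were also called higher under RGRN-305 and are called remaining. Another 129 (8.58%) were back near vehicle level, which means that the 95% interval of the difference between RGRN-305 and vehicle mice lay inside a 2-fold change in both directions. Over all genes tested, that interval lay inside 2-fold for 13048 (64.7%). The other 650 (43.2%) met neither rule, and 451 of them still passed in the same direction. Of the 1528 genes lowered by MC903, 706 (46.2%) remained, 47 (3.08%) were back and 775 (50.7%) met neither rule, of which 699 still passed in the same direction. As shares of all genes tested, the remaining genes were 3.59% raised and 3.5% lowered, and those back were 0.64% raised and 0.233% lowered.

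Of the remaining genes, 494 of the 725 raised and 208 of the 706 lowered stood nearer to vehicle than in MC903 mice at an adjusted p below 0.05. Among the 725 raised and remaining genes, the median log2 fold change was 2.61 in RGRN-305 mice and 3.93 in MC903 mice. Against MC903 mice, 205 of them did not pass and 26 were further from vehicle. Over all genes tested, 18.6% were higher and 19.4% lower than in MC903 mice at that threshold. For 147 the interval of the difference between RGRN-305 and MC903 mice lay inside 2-fold, and these are called held. The 706 lowered and remaining genes had a median of -1.80 in RGRN-305 mice and -2.25 in MC903 mice, 496 did not pass, 2 were further and 306 were held. The held genes were 0.729% (raised) and 1.52% (lowered) of the genes tested. RGRN-305 and vehicle mice did not overlap at 538 of the 725 raised and 577 of the 706 lowered genes. Over all genes tested, 13.8% had no overlap with RGRN-305 higher and 14.8% with RGRN-305 lower. Remaining genes were chosen by the difference between these same mice, so a higher share follows from the rule. The limit itself cut a continuous range, as Fabp5, a fatty acid binding protein, was just inside it at 1.50193 and Ifi211, an interferon-inducible gene, just outside it at 1.49876.

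**Figure D1:**
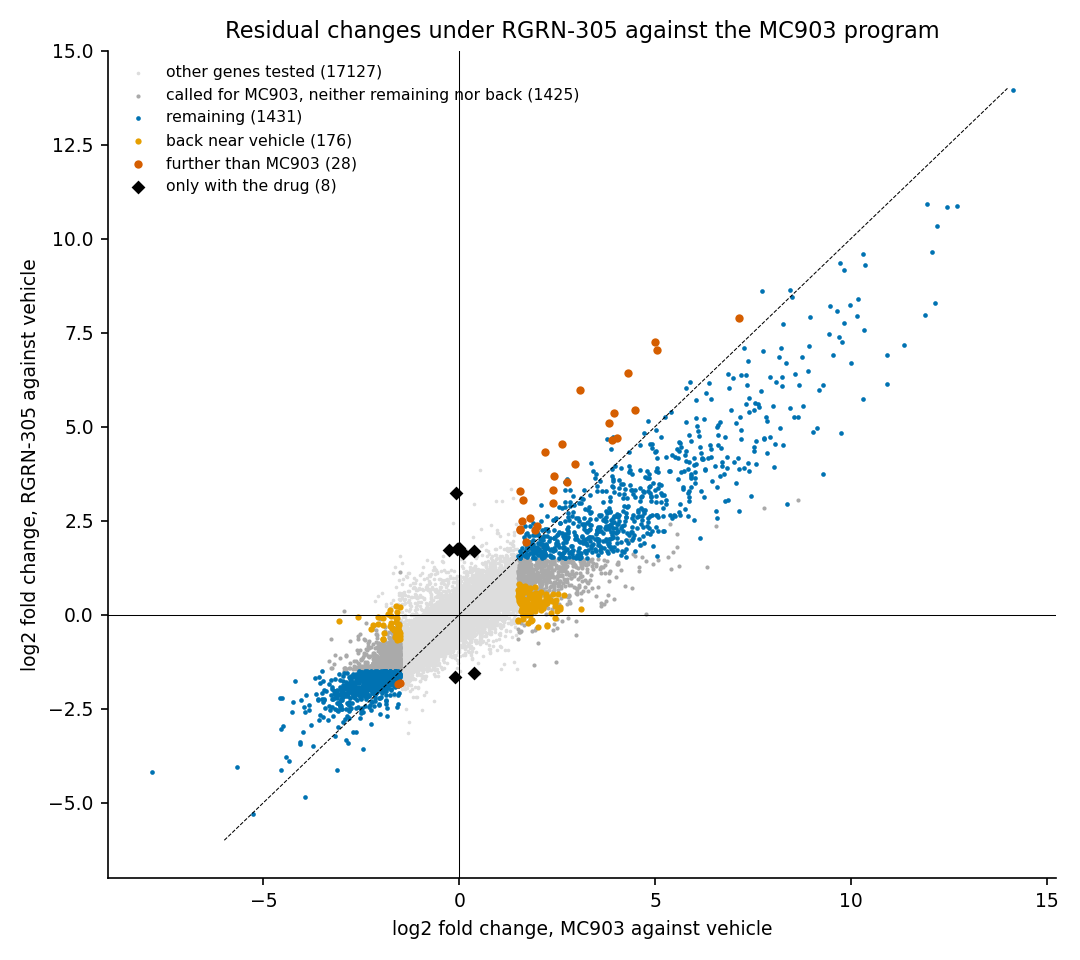
Each point is 1 of the 20167 genes tested, with the log2 fold change of MC903 mice against vehicle on the x axis and of RGRN-305 mice against vehicle on the y axis, both with the same vehicle mice. Colours mark the remaining genes (725 raised and 706 lowered), those back near vehicle level (129 and 47), those of the program in neither class (650 and 775), those further changed (26 and 2) and those changed only with the drug (6 and 2), and most coloured points lie between the dashed line of equal change and the zero line.

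The genes that were held included the direct mark of MC903 and part of its epidermal response. Cyp24a1, the vitamin D 24-hydroxylase and the best known target of the vitamin D receptor (chromosome 2, 170324628 to 170339065 in GRCm39), was at 1594 to 2537 CPM (median 1787) in RGRN-305 mice, 1973 to 2780 CPM (median 2123) in MC903 mice and 0 to 0.687 CPM (median 0) in vehicle mice. Its log2 fold change against vehicle was 13.96 ± 0.42 (adjusted p = 4.6e-18), which rests on reads in vehicle mouse 4 alone and was 18.44 without that mouse, and that against MC903 was -0.19 ± 0.19 (adjusted p = 0.459, interval -0.58 to 0.20). Every mouse that received MC903 was far above every vehicle mouse. Rptn, the cornified envelope protein repetin, was at 516 to 1912 CPM (median 966) in RGRN-305 mice, 708 to 2379 CPM (median 1079.6) in MC903 mice and 10.7 to 18.1 CPM (median 15.6) in vehicle mice (6.17 ± 0.37, adjusted p = 3.85e-12). Epgn, the EGF receptor ligand epigen, was at 16.3 to 32.2 CPM (median 24.3) in RGRN-305 mice, 16.2 to 47.5 CPM (median 30.8) in MC903 mice and 0.254 to 0.633 CPM (median 0.474) in vehicle mice (5.71 ± 0.32, adjusted p = 5.38e-13). Cdhr1, a member of the cadherin superfamily, and Fxyd4, a regulator of the sodium pump, were held too, with log2 fold changes of 8.45 ± 0.23 (adjusted p = 2.31e-20) and 7.74 ± 0.33 (adjusted p = 5.59e-15) against vehicle, and that of Fxyd4 was 8.37 without vehicle mouse 4. In these genes RGRN-305 and MC903 mice overlapped, and both groups stood apart from vehicle. The rules for held and for named genes largely fix this pattern.

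Genes of late keratinocyte differentiation stayed high as a group. Of 21 tested members of that list, 17 passed higher and 2 passed lower, with a median of 0.80, against 0.85 in MC903 mice. Over all genes tested, 30.3% passed higher and 29.5% lower. Krt1, the suprabasal partner of keratin 10, was at 3701 to 5722 CPM (median 4576) in RGRN-305 mice, 6027 to 8378 CPM (median 7157) in MC903 mice and 648 to 809 CPM (median 683) in vehicle mice (2.71 ± 0.11 against vehicle, adjusted p = 1.92e-17). Klk7, a protease of corneocyte shedding, and Cdsn, the adhesion protein corneodesmosin that it cleaves, were higher by 2.14 ± 0.13 (adjusted p = 3.11e-13) and 1.51 ± 0.10 (adjusted p = 1.72e-12). Cdsn was so near the fold limit that its call was lost for 9 of the 22 mice left out in turn (vehicle mice 2, 4, 5 and 6, MC903 mouse 6 and RGRN-305 mice 4, 5, 6 and 8), at 1.475 or more. Casp14, the caspase that helps to process filaggrin, was higher by 2.30 ± 0.17 (adjusted p = 5.65e-11) and did not pass against MC903 (0.31 ± 0.15, adjusted p = 0.107). Flg itself, filaggrin, was at 3638 to 8769.5 CPM (median 5157) in RGRN-305 mice, 2683 to 3675 CPM (median 3147) in MC903 mice and 519 to 1260.5 CPM (median 944) in vehicle mice. It was higher than in vehicle by 2.58 ± 0.21 (adjusted p = 1.43e-10) and higher than in MC903 mice by 0.77 ± 0.18 (adjusted p = 0.00111). The members that passed lower were Flg2 (-0.65 ± 0.20, adjusted p = 0.00707) and Lce1m (-0.73 ± 0.25, adjusted p = 0.0136), of the filaggrin-like and late cornified envelope proteins.

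**Figure D2:**
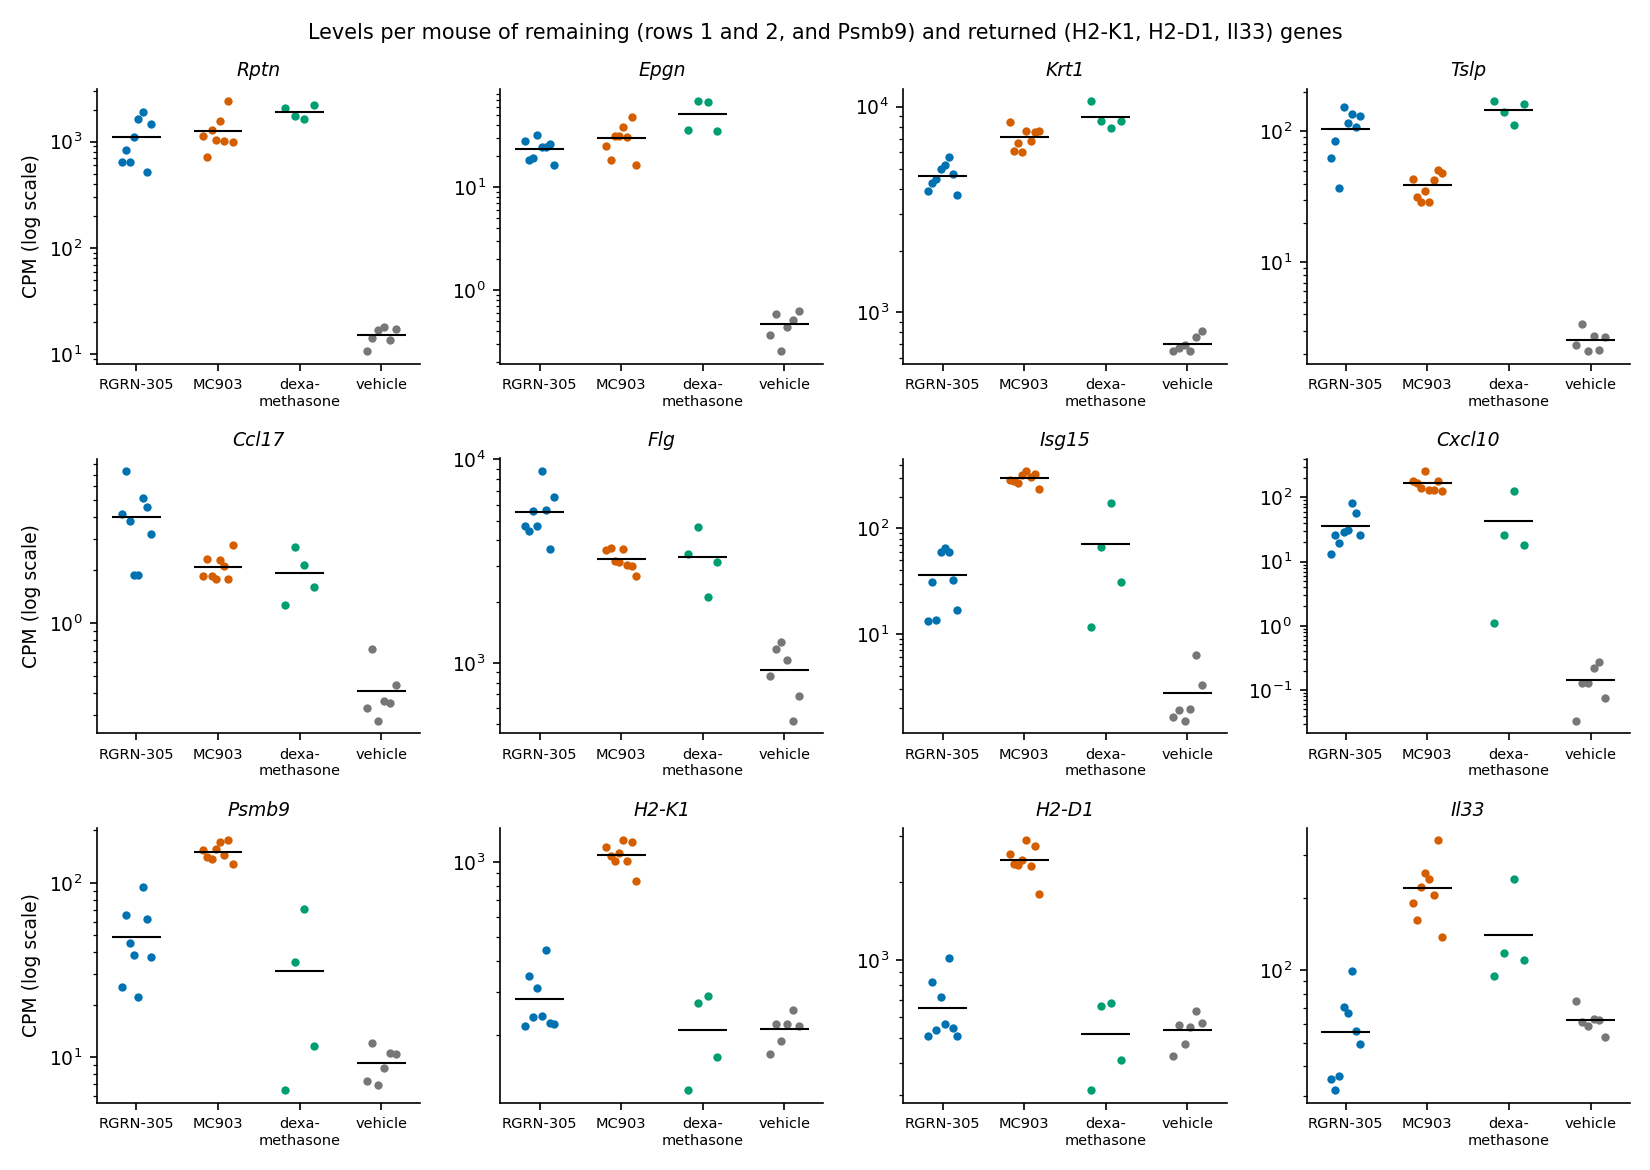
Each point is the CPM of 1 mouse on a log axis, and the line in each group is the mean, for 12 genes in RGRN-305 (n = 8), MC903 (n = 8), dexamethasone (n = 4) and vehicle (n = 6) mice. Rptn and Epgn stayed near the MC903 level under RGRN-305, Krt1 was below it, Tslp, Ccl17 and Flg rose above it, Isg15, Cxcl10 and Psmb9 lay between MC903 and vehicle, and H2-K1, H2-D1 and Il33 lay near vehicle.

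The stressed epidermis, the keratins and small proline-rich proteins of wounded and inflamed skin, remained at a lower level. Of 30 tested members, 28 passed higher under RGRN-305 and 24 remained, beside 30.3% and 3.59% of all genes tested. Their median was 4.33, against 7.22 in MC903 mice. Krt16, a keratin of activated keratinocytes, was at 431 to 2402 CPM (median 1029) in RGRN-305 mice, 4018 to 10397 CPM (median 6211) in MC903 mice and 15.8 to 34 CPM (median 26) in vehicle mice. It was higher than in vehicle by 5.55 ± 0.42 (adjusted p = 2.02e-10) and lower than in MC903 mice by -2.46 ± 0.32 (adjusted p = 2.43e-06), and the 3 groups did not overlap. Its partner Krt6b varied more among RGRN-305 mice, at 103 to 1929.5 CPM (median 356), against 2962 to 9687 CPM (median 5455) in MC903 mice and 11.7 to 16.6 CPM (median 13.3) in vehicle mice (5.26 ± 0.68 against vehicle, adjusted p = 8.77e-07). RGRN-305 mouse 6 was the highest of its group for both keratins, and the change of Krt6b was 4.58 without it. All 9 tested genes of the stefin A family, inhibitors of cysteine proteases, passed higher, and 8 remained, with a median of 7.17, against 9.70 in MC903 mice. The small proline-rich Sprr2 genes and the stefins are near-identical copies, so the split of reads among them is uncertain.

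Antimicrobial peptides followed the same order. Of 14 tested members, 12 passed higher and 11 remained, beside 30.3% and 3.59% of all genes tested. Their median was 3.33, against 5.58 in MC903 mice. S100a8, a subunit of calprotectin made by neutrophils and by stressed keratinocytes, was at 5.71 to 54.5 CPM (median 12.9) in RGRN-305 mice, 92.7 to 615 CPM (median 204) in MC903 mice and 0.513 to 1.3 CPM (median 0.755) in vehicle mice (4.51 ± 0.69 against vehicle, adjusted p = 7.05e-06). RGRN-305 mice lay above every vehicle mouse and below every MC903 mouse. The beta-defensin Defb4 was at 0.162 to 1.03 CPM (median 0.433) in RGRN-305 mice, 0.896 to 1.55 CPM (median 1.25) in MC903 mice and 0 to 0.0331 CPM (median 0) in vehicle mice (adjusted p = 7.52e-09). Vehicle mice held 2 counts of it in all, and the pooled level of RGRN-305 mice was 37.9 times theirs, with an exact 95% interval of 10.2 to 318 that covers counting error only. Wfdc18, of the WAP family, was the member back near vehicle level, at -0.10 ± 0.34 (adjusted p = 0.814, interval -0.79 to 0.59).

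Genes of the hair shaft were among the largest residual changes but varied widely. Krt36, a hair keratin, was at 88.5 to 1641 CPM (median 386) in RGRN-305 mice, 503 to 1665 CPM (median 1207) in MC903 mice and 0.0372 to 1.76 CPM (median 0.105) in vehicle mice (10.93 ± 0.88, adjusted p = 7.11e-10, and 12.16 without vehicle mouse 2). No vehicle mouse had a read of the keratin-associated genes of the hair Krtap13-20, Krtap13-23 or Krtap13. Set against 3 counts over the vehicle group, the mean of RGRN-305 mice was at least 553-fold higher for Krtap13-20, at least 543-fold for Krtap13-23 and at least 385-fold for Krtap13. These 3 are near-identical copies and their counts may be shared. Of 28 tested hair genes, 9 passed higher, none passed lower and 8 remained, with a median of 0.95, against -0.45 in MC903 mice. Over all genes tested, 30.3% passed higher and 3.59% were raised and remained, so the share of hair genes that passed higher was near that of all genes. The summed level of the hair genes was 1368 to 6341 CPM (median 2987) in RGRN-305 mice and 16.4 to 778 CPM (median 23.1) in vehicle mice. Tchh, another member, was higher by 5.16, and by 6.71 without vehicle mouse 2.

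Type 2 signals remained in part. TSLP, the alarmin that starts MC903 dermatitis, was among the 26 genes that stood further from vehicle than in MC903 mice. Its gene Tslp was at 36.7 to 155 CPM (median 112) in RGRN-305 mice, 28.9 to 50.7 CPM (median 38.7) in MC903 mice and 2.09 to 3.39 CPM (median 2.51) in vehicle mice. The log2 fold change of RGRN-305 mice was 5.37 ± 0.30 against vehicle (adjusted p = 1.23e-12) and 1.43 ± 0.21 against MC903 (adjusted p = 1.28e-05), and 7 of 8 RGRN-305 mice were above every MC903 mouse. Dexamethasone mice were at 169.5, 140.4, 112 and 163 CPM, and RGRN-305 mice differed from them by -0.49 ± 0.25 (adjusted p = 0.126). Areg, the EGF receptor ligand amphiregulin, remained at a lower level, with 4.03 to 10.7 CPM (median 6.83) in RGRN-305 mice, 8.96 to 38.6 CPM (median 16.9) in MC903 mice and 0.0662 to 0.391 CPM (median 0.115) in vehicle mice (5.44 ± 0.46, adjusted p = 5.88e-10). Il33, the gene of the nuclear alarmin interleukin-33, was back. It was at 31.8 to 99.6 CPM (median 52.9) in RGRN-305 mice, 138 to 345 CPM (median 213) in MC903 mice and 52.8 to 74.5 CPM (median 61.5) in vehicle mice, with a difference from vehicle of -0.15 ± 0.25 (adjusted p = 0.61, interval -0.67 to 0.36). RGRN-305 mice lay on both sides of the vehicle mice.

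The cytokines that define the type 2 response were low in every group. Il13 was at 0.306 to 1.36 CPM (median 0.629) in RGRN-305 mice, 0.943 to 2.67 CPM (median 1.93) in MC903 mice and 0.0331 to 0.237 CPM (median 0.103) in vehicle mice, and was higher than in vehicle by 2.64 ± 0.52 (adjusted p = 8.66e-05). Il4 was at 0.0995 to 0.816 CPM (median 0.325) in RGRN-305 mice, 0.831 to 3.4 CPM (median 0.933) in MC903 mice and 0.0254 to 0.253 CPM (median 0.129) in vehicle mice, which overlapped between RGRN-305 and vehicle (1.51 ± 0.55, adjusted p = 0.0193). Its call was lost without any of vehicle mice 1, 2 and 3, MC903 mouse 6 and RGRN-305 mice 4, 6 and 7, with a log2 fold change of at least 1.22 and an adjusted p of up to 0.0624, and was not made against vehicle mice 4 to 6 alone (0.91, adjusted p = 0.223). The receptor chain Il4ra was higher by 1.91 ± 0.24 (adjusted p = 4.32e-07) and the decoy receptor Il13ra2 by 1.74 ± 0.25 (adjusted p = 1.22e-06). Of 8 tested genes of type 2 cytokines and receptors, 6 passed higher, 1 passed lower and 4 remained, beside 30.3%, 29.5% and 3.59% of all genes tested. Their median was 1.03, against 2.68 in MC903 mice.

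Chemokines that attract CCR4-bearing T cells rose above the MC903 level. Ccl17 was at 1.87 to 7.35 CPM (median 4) in RGRN-305 mice, 1.78 to 2.77 CPM (median 1.99) in MC903 mice and 0.28 to 0.716 CPM (median 0.359) in vehicle mice, higher than in vehicle by 3.32 ± 0.29 (adjusted p = 2.38e-10) and than in MC903 mice by 0.94 ± 0.23 (adjusted p = 0.00157). Ccl22, which binds the same receptor, was at 10.2 to 16.2 CPM (median 14) in RGRN-305 mice, 8.59 to 12.8 CPM (median 10.1) in MC903 mice and 3.04 to 5.53 CPM (median 4.13) in vehicle mice. It was called against vehicle under RGRN-305 (1.73 ± 0.14, adjusted p = 6.53e-11) and passed without reaching the fold limit in MC903 mice (1.30 ± 0.14, adjusted p = 3.86e-09), with a difference between the 2 of 0.43 ± 0.12 (adjusted p = 0.00673). Ccl8, a chemokine of macrophages that in mice binds CCR8, remained at a lower level, with 41 to 113 CPM (median 63.1) in RGRN-305 mice, 199 to 514 CPM (median 263) in MC903 mice and 12.7 to 20.6 CPM (median 15.2) in vehicle mice (2.13 ± 0.40, adjusted p = 8.96e-05). Ccl1, the other CCR8 ligand of mice, was higher than in vehicle by 4.42 ± 0.51 (adjusted p = 3.24e-08) and did not pass against MC903 (0.53 ± 0.33, adjusted p = 0.22), and its change from vehicle was 5.05 without vehicle mouse 3. Over the 9 genes of the list, 5 passed higher and none lower, beside 30.3% and 29.5% of all genes tested.

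Other genes stood further from vehicle with the drug. Ccl20, the CCR6 ligand, was at 4.53 to 20.1 CPM (median 12.8) in RGRN-305 mice, 1.7 to 5.5 CPM (median 3.6) in MC903 mice, 0.9, 2.08, 2.41 and 1.1 CPM in dexamethasone mice and 0.0744 to 1.01 CPM (median 0.586) in vehicle mice (4.53 ± 0.45 against vehicle, adjusted p = 8.9e-09, and 1.89 ± 0.34 against MC903, adjusted p = 9.05e-05). Myl7, a light chain of atrial myosin, was at 2.34 to 7.56 CPM (median 4.06) in RGRN-305 mice, 0.633 to 1.16 CPM (median 0.956) in MC903 mice and 0 to 0.0509 CPM (median 0.0165) in vehicle mice (7.26 ± 0.41 against vehicle, adjusted p = 6.69e-14). Lrtm2, a membrane protein with leucine-rich repeats, was higher than in vehicle by 4.69 ± 0.31 (adjusted p = 8.11e-13) and than in MC903 mice by 0.67 ± 0.21 (adjusted p = 0.0113). Cyp2g1, a cytochrome P450 best known from olfactory mucosa, was high with RGRN-305 and not with dexamethasone. It was at 10.9 to 36.7 CPM (median 19.5) in RGRN-305 mice, 2.67 to 7.81 CPM (median 4.01) in MC903 mice, 0, 0.259, 0.205 and 0.0368 CPM in dexamethasone mice and 0.237 to 1.92 CPM (median 1.06) in vehicle mice, higher by 4.33 ± 0.41 against vehicle (adjusted p = 4.36e-09) and by 7.42 ± 0.67 against dexamethasone (adjusted p = 8.59e-09). The median of the 26 genes was 3.86 in RGRN-305 mice and 2.53 in MC903 mice, an order that the rule fixes. In dexamethasone mice the median of the same genes was 3.14, also above that of MC903 mice. Of all genes tested, 0.129% were raised further and 0.00992% lowered further. One lowered gene was Creb3l1, a transcription factor of the endoplasmic reticulum, at -1.81 ± 0.11 against vehicle and -0.31 ± 0.11 against MC903 (adjusted p = 0.0271). It did not meet the rule without MC903 mouse 2, MC903 mouse 3 or RGRN-305 mouse 6.

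Neutrophil chemoattractants stayed above vehicle, while genes of the IL-1 and IL-20 families passed in both directions. The list of neutrophil chemoattractants has 11 members, of which 7 were tested, and includes the receptor gene Cxcr2. All 7 passed higher and 6 remained, with a median of 3.40, against 3.93 in MC903 mice, and 2 of the 7 passed lower than in MC903 mice. Of 10 genes of the IL-1 and IL-36 family, 7 passed higher and 1 lower against vehicle, and 2 passed higher and 4 lower against MC903. Of 7 genes of the IL-20 family, 2 passed higher and 1 lower against vehicle, and 2 passed higher and 2 lower against MC903. Over all genes tested, 30.3% passed higher and 29.5% lower against vehicle, and 18.6% and 19.4% against MC903. The IL-20 counts against vehicle were not above these shares. Cxcl5, a CXCR2 ligand of epithelial cells, was at 0.746 to 14.2 CPM (median 1.87) in RGRN-305 mice, 16.1 to 87 CPM (median 27.6) in MC903 mice and 0 to 0.079 CPM (median 0.0367) in vehicle mice (6.68 ± 1.20, adjusted p = 5.58e-05). Cxcl1, another CXCR2 ligand, was at 1.39 to 9.81 CPM (median 3.95) in RGRN-305 mice, 1.84 to 14.5 CPM (median 4.95) in MC903 mice and 0.276 to 0.707 CPM (median 0.523) in vehicle mice (3.30 ± 0.60, adjusted p = 5.49e-05) and did not pass against MC903 (-0.44 ± 0.45, adjusted p = 0.47, interval -1.36 to 0.49). Il1b was at 5.32 to 42.1 CPM (median 9.86) in RGRN-305 mice, 28 to 92.9 CPM (median 42.2) in MC903 mice and 0.298 to 1 CPM (median 0.745) in vehicle mice (4.46 ± 0.70, adjusted p = 1.11e-05). Il6 was at 1.4 to 9.32 CPM (median 3.25) in RGRN-305 mice, 5.77 to 12.2 CPM (median 7.42) in MC903 mice and 0.0651 to 0.229 CPM (median 0.115) in vehicle mice (4.78 ± 0.73, adjusted p = 6.06e-06), and RGRN-305 and MC903 mice overlapped (-1.10 ± 0.45, adjusted p = 0.0604). Il19 and Il24, cytokines of the IL-20 family, had 2 and 3 counts over all vehicle mice. The pooled level of RGRN-305 mice was 374 times that of vehicle for Il19 (exact 95% interval 103 to 3097, adjusted p = 0.000116) and 36.8 times for Il24 (12.3 to 181, adjusted p = 0.00727). Both were lower than in MC903 mice by -3.91 ± 0.59 (adjusted p = 1.56e-05) and -4.91 ± 0.63 (adjusted p = 2.15e-06). RGRN-305 mice 6 and 7 had the 2 highest levels of Il1b, Il6 and Il19 in their group. The epidermal agonists Il36g and Il36a were back near vehicle level, with 0.55 ± 0.12 (interval 0.31 to 0.80, adjusted p = 0.000262) and 0.53 ± 0.22 (interval 0.07 to 0.99, adjusted p = 0.0453). The pass of Il36a was lost for 10 of the 22 mice left out in turn (vehicle mice 1, 3, 4, 5 and 6 and RGRN-305 mice 2, 3, 5, 6 and 8), with an adjusted p of up to 0.118.

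Most markers of neutrophils, T cells and cytotoxic cells stayed above vehicle. In these bulk libraries, fewer cells of a type and less RNA per cell cannot be told apart. Over all genes tested, 30.3% passed higher, 29.5% passed lower and 3.59% were raised and remained. Of the 14 neutrophil markers, 10 were tested, of which 9 passed higher and all 9 remained. The summed level of the 10 was 90.4 to 272 CPM in RGRN-305 mice and 62.0 to 79.3 CPM in vehicle mice. Of 16 T cell markers, 12 passed higher, 1 passed lower and 9 remained, with a median of 1.66, against 3.16 in MC903 mice, but Cd4 was back (0.42 ± 0.25, adjusted p = 0.15, interval -0.09 to 0.92) and the summed levels overlapped, with 149 to 238 CPM in RGRN-305 mice and 180 to 258 CPM in vehicle mice. Of 10 NK and cytotoxic genes, 6 passed higher and all 6 remained. Gzmb, the protease granzyme B, was at 1.09 to 8.85 CPM (median 2.43) in RGRN-305 mice, 9.39 to 27.1 CPM (median 12.7) in MC903 mice and 0 to 0.158 CPM (median 0.121) in vehicle mice (4.92 ± 0.76, adjusted p = 7.92e-06). Mcpt8, a protease of basophils, was at 2.32 to 13.1 CPM (median 5.06) in RGRN-305 mice, 13.2 to 30.2 CPM (median 19.4) in MC903 mice and 0 to 0.149 CPM (median 0.0127) in vehicle mice (7.14 ± 0.93, adjusted p = 7.61e-07, and 8.20 without vehicle mouse 6). Mast cell genes mostly went the other way, as 7 of 10 passed lower and 2 higher. The mast cell protease Cpa3 was at 16.8 to 23.5 CPM (median 20.8) in RGRN-305 mice, 13.9 to 29 CPM (median 19.4) in MC903 mice and 24.1 to 48.9 CPM (median 34.2) in vehicle mice (-0.80 ± 0.14, adjusted p = 2.5e-05), and MC903 mice differed from vehicle by -0.80 ± 0.14 (adjusted p = 1.45e-05). Only 3 of the 8 B and plasma cell markers were tested, and none was called.

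The interferon response remained in part too, but its members split. Interferons act through transcription factors that bind short elements in the promoters of target genes. Type I interferon leads to the interferon-stimulated response element (ISRE), and interferon-gamma induces guanylate-binding proteins, CXCR3 ligands, the immunoproteasome and MHC class I. The promoters of 5 such genes are shown because they span the split, with Isg15, Cxcl10 and Igtp remaining, B2m in neither class and H2-K1 back near vehicle level. They are the 250 bases before the first transcription start that RefSeq lists (GRCm38.p6), 5′ to 3′ on the strand of the gene. Capitals mark every match to an ISRE core, which is GAAA, any 2 bases and GAAA again, or to the shorter GAANNGAAA, on either strand, and the forms can overlap, as they do in Igtp.
Isg15 (chr4:156200819-156201068, minus strand): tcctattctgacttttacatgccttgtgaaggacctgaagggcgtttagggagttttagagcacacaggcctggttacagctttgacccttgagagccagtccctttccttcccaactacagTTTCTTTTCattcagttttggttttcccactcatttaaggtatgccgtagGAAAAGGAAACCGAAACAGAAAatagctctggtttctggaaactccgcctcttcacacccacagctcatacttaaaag
Cxcl10 (chr5:92348890-92349139, minus strand): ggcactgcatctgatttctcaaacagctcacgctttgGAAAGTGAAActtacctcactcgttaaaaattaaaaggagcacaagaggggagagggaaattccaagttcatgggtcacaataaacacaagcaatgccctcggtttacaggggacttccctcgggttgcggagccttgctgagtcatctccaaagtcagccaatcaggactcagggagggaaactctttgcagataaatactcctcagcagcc
Igtp (chr11:58199306-58199555, plus strand): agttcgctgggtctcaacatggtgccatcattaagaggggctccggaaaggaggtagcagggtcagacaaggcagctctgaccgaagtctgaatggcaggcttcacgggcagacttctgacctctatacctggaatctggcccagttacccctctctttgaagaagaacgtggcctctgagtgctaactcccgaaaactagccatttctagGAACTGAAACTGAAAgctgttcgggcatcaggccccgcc
B2m (chr2:122147437-122147686, plus strand): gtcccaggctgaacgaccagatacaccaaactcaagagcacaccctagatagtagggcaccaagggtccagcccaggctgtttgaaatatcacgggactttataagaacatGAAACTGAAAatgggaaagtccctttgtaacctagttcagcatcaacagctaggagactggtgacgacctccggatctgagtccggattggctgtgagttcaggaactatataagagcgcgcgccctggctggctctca
H2-K1 (chr17:34000348-34000597, minus strand): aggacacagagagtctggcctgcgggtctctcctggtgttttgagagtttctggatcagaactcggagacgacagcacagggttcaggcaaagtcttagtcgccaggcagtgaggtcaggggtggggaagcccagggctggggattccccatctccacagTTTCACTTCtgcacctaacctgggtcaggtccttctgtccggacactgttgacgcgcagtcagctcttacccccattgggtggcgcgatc

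The ISRE core stood 3 times in the Isg15 window, within bases 78 to 57 before the start, and once in those of Cxcl10 (bases 213 to 204), Igtp (34 to 25) and B2m (139 to 130). The H2-K1 window had no match to it and 1 match to the shorter form, at bases 90 to 82 before the start. H2-K1 has 2 listed starts, and the first was used. The ISRE core was in 9.96% of the 482 raised and remaining genes with a promoter in the table, in 5.32% (5) of the 94 that were back, in 12.1% of the 396 in neither class and in 1.94% (2) of the 103 that were held. The shorter form was in 11.4%, 17.0%, 12.6% and 7.77% of the same genes. Over all 12693 tested genes with a promoter the shares were 3.12% and 6.29%, and over all 27025 promoters of the same length 3.49% and 7.56%. Another form searched, TTCNNNGAA, differed less between remaining and back genes. It was in 11.4% of the remaining, 9.57% of the back, 10.9% of the neither and 5.83% of the held genes, beside 6.99% of tested genes with a promoter. A match is a description of letters and not a shown binding site.

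Of 27 tested genes induced by type I interferon, all 27 were raised by MC903, 23 passed higher under RGRN-305, 19 remained and 1 was back. Among all genes tested these shares were 7.46%, 30.3%, 3.59% and 0.64%. The median of the 27 was 2.62 in RGRN-305 mice and 5.50 in MC903 mice. Isg15, a ubiquitin-like modifier, was at 13.4 to 65.5 CPM (median 31.6) in RGRN-305 mice, 234 to 349 CPM (median 297) in MC903 mice and 1.5 to 6.24 CPM (median 1.92) in vehicle mice (3.74 ± 0.57 against vehicle, adjusted p = 7.6e-06). The 3 groups did not overlap. Ifit1, which binds foreign RNA ends, and Mx1, a dynamin-like antiviral GTPase, were higher than in vehicle by 4.02 ± 0.74 (adjusted p = 7.18e-05) and 3.16 ± 0.74 (adjusted p = 0.000912), and lower than in MC903 mice by -3.55 ± 0.55 (adjusted p = 2.27e-05) and -4.29 ± 0.56 (adjusted p = 3.14e-06). Zbp1, a sensor of Z-form nucleic acids, was higher than in vehicle by 4.16 ± 0.68 (adjusted p = 1.84e-05). Ifit2 was the member back near vehicle level, at 3.67 to 13 CPM (median 5.62) in RGRN-305 mice, 21.1 to 54.1 CPM (median 34.4) in MC903 mice and 5.45 to 10.3 CPM (median 7.21) in vehicle mice (-0.30 ± 0.31, adjusted p = 0.416).

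Of 18 genes of the interferon-gamma and CXCR3 axis, 16 passed higher, 1 passed lower and 15 remained, beside 30.3%, 29.5% and 3.59% of all genes tested. Their median was 2.82, against 4.69 in MC903 mice. Ifng had no count in any vehicle mouse and was at 0.0811 to 1.16 CPM (median 0.357) in RGRN-305 mice and 1.27 to 2.49 CPM (median 1.63) in MC903 mice, at least 29.6-fold higher in RGRN-305 mice against 3 counts over the vehicle group. Cxcl10, a CXCR3 ligand, was at 13.4 to 82.4 CPM (median 27.2) in RGRN-305 mice, 125 to 258 CPM (median 156) in MC903 mice and 0.0331 to 0.276 CPM (median 0.129) in vehicle mice (7.93 ± 0.97, adjusted p = 3.5e-07). Every RGRN-305 mouse was above every vehicle mouse and below every MC903 mouse. The immunity-related GTPases Igtp and Irgm2 were higher than in vehicle by 3.82 ± 0.59 (adjusted p = 8.04e-06) and 3.64 ± 0.54 (adjusted p = 4.95e-06), and their locus is shared, so reads may be split. The member that passed lower was Nos2, the inducible nitric oxide synthase, at 0.0469 to 0.352 CPM (median 0.192) in RGRN-305 mice, 0.373 to 2.94 CPM (median 1.38) in MC903 mice and 0.335 to 0.79 CPM (median 0.525) in vehicle mice (-1.44 ± 0.44 against vehicle, adjusted p = 0.0059). Its order was therefore RGRN-305 below vehicle below MC903, with overlap between neighbours.

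Of 10 tested genes of antigen presentation by class I, 7 passed higher, 4 remained, 2 were back and 4 met neither rule. Among all genes tested, 30.3% passed higher, 3.59% were raised and remained and 0.64% were raised and back. The median of the 10 was 1.15, against 2.62 in MC903 mice. The immunoproteasome subunits Psmb9 and Psmb8 and the peptide transporter Tap1 remained, at 2.40 ± 0.41 (adjusted p = 2.99e-05), 2.37 ± 0.41 (adjusted p = 3.9e-05) and 1.60 ± 0.29 (adjusted p = 5.63e-05) against vehicle, and Tap1 fell short of the fold limit without RGRN-305 mouse 6 (1.45). Psmb9 was at 22.3 to 94.6 CPM (median 41.8) in RGRN-305 mice, 128 to 175 CPM (median 149) in MC903 mice and 6.9 to 12 CPM (median 9.55) in vehicle mice. The classical heavy chain H2-K1 (chromosome 17, 34214987 to 34219321 in GRCm39) was at 218 to 442 CPM (median 239) in RGRN-305 mice, 835 to 1218 CPM (median 1069.6) in MC903 mice and 169 to 253 CPM (median 221) in vehicle mice, with a difference from vehicle of 0.40 ± 0.17 (adjusted p = 0.0514, interval 0.04 to 0.75). H2-D1, the other classical chain, differed by 0.29 ± 0.17 (adjusted p = 0.144, interval -0.06 to 0.63). The light chain B2m was at 184 to 522 CPM (median 242) in RGRN-305 mice, 1044 to 1752 CPM (median 1218) in MC903 mice and 155 to 231 CPM (median 198) in vehicle mice and differed by 0.53 ± 0.26 (adjusted p = 0.077, interval 0.00 to 1.06), too wide for the rule. RGRN-305 mouse 6 was the highest of its group for Psmb9, H2-K1 and B2m, while mouse 5 was the highest for Isg15 and Ifit1.

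The class I heavy chain genes were looked at as a family after their values were seen. Of 23 tested genes named H2-K, H2-D, H2-Q, H2-T or H2-M, 20 were raised by MC903, 16 of these were back, 1 remained and 3 met neither rule. Among all genes tested, 7.46% were raised by MC903, and 8.58% of those were back. The 16 had log2 fold changes of 0.162 to 0.543 in RGRN-305 mice and 1.89 to 3.12 in MC903 mice. H2-Q5 was at 10.1 to 32.9 CPM (median 14.4) in RGRN-305 mice, 73.9 to 151 CPM (median 142) in MC903 mice and 10.7 to 22 CPM (median 15.2) in vehicle mice (0.16 ± 0.26, adjusted p = 0.604). H2-T22, H2-Q7 and H2-T15, of the nonclassical class I genes, differed from vehicle by 0.52 ± 0.17 (adjusted p = 0.0125), 0.19 ± 0.20 (adjusted p = 0.422) and 0.54 ± 0.19 (adjusted p = 0.0158). H2-T24 was the one that remained, at 6.64 to 20.9 CPM (median 8.72) in RGRN-305 mice, 43.4 to 68.3 CPM (median 50.3) in MC903 mice and 3.21 to 3.87 CPM (median 3.45) in vehicle mice (1.70 ± 0.35, adjusted p = 0.000239). These genes are near-identical copies in a strain whose alleles may differ from the reference, so values of single members are uncertain and the 16 are not independent. Class II genes had moved less, with 4 of 8 passing higher, beside 30.3% of all genes tested, and none called. Their median was 0.37, against 1.07 in MC903 mice. Without vehicle mouse 1, H2-DMa and H2-Ab1 of these 4 had adjusted p-values of 0.0604 and 0.0588, and H2-Ab1 did not pass without vehicle mouse 3 either.

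**Figure D3:**
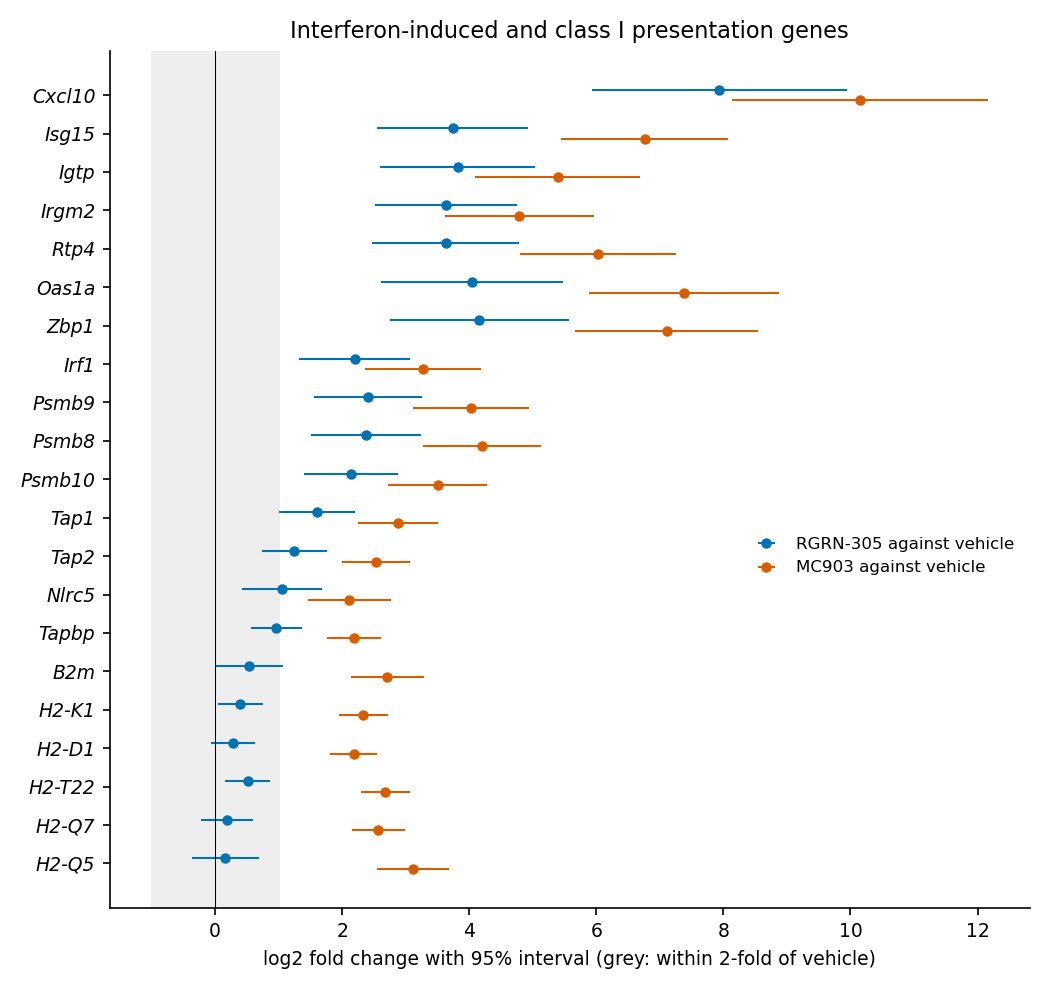
Points are log2 fold changes against vehicle of 21 interferon-related genes in RGRN-305 mice and in MC903 mice, with 95% intervals as bars and a grey band for changes within 2-fold. Intervals of the antiviral and CXCR3 genes under RGRN-305 lie above the band, while those of H2-K1 and H2-D1 lie inside it.

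Other genes were back near vehicle level. The 129 raised genes that were back had a median vehicle level of 6.03 CPM, against 0.289 CPM for the raised genes that remained, and a median interval width of 0.817 against 1.84, so the rule was met more easily by abundant genes. Against vehicle 49 of the 129 still passed. Pgf, placental growth factor, was at 0.597 to 1.46 CPM (median 1.01) in RGRN-305 mice, 3.04 to 9.51 CPM (median 5.14) in MC903 mice and 0.456 to 1.6 CPM (median 0.778) in vehicle mice (0.16 ± 0.29, adjusted p = 0.662). Of the 47 lowered genes that were back, 14 still passed. Gldc, the glycine decarboxylase of mitochondria, was at 5.41 to 14.5 CPM (median 9.69) in RGRN-305 mice, 1.47 to 4.1 CPM (median 2.92) in MC903 mice and 10.2 to 14.8 CPM (median 13.7) in vehicle mice (-0.38 ± 0.18, adjusted p = 0.0676). Dapl1, a gene of differentiating epithelium, was at 119.7 to 217 CPM (median 146) in RGRN-305 mice, 31.8 to 65.7 CPM (median 45.2) in MC903 mice and 146 to 233 CPM (median 180.3) in vehicle mice (-0.27 ± 0.13, adjusted p = 0.0798). Hdac11, a histone deacetylase family member, D7Ertd443e and Cyp2j9, a cytochrome P450, differed from vehicle by -0.64 ± 0.15 (adjusted p = 0.000601), -0.65 ± 0.16 (adjusted p = 0.000748) and -0.48 ± 0.16 (adjusted p = 0.0108), all within 2-fold. The clock gene Per1 was back at -0.38 ± 0.26 (adjusted p = 0.214, interval -0.92 to 0.16), but 10 of 14 clock genes passed lower, beside 29.5% of all genes tested. Their median was -0.73, against -1.29 in MC903 mice.

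The lowered and remaining genes included those of tissues below the epidermis. Among all genes tested, 29.5% passed lower and 3.5% were lowered and remained. All 17 skeletal muscle genes passed lower and 11 remained, with a median of -1.76, against -2.52 in MC903 mice. Their summed level was 539 to 1970 CPM in RGRN-305 mice and 2734 to 5909 CPM in vehicle mice. Myh4, the fastest myosin heavy chain, was at 2.89 to 85.6 CPM (median 16) in RGRN-305 mice, 0.99 to 26.8 CPM (median 4.7) in MC903 mice and 112 to 518 CPM (median 154) in vehicle mice (-3.04 ± 0.70, adjusted p = 0.000762). Mylk4, a muscle kinase, was lower by -2.94 ± 0.35 (adjusted p = 9.83e-08). Of 19 genes of fat cells and lipid synthesis, 17 passed lower and 6 remained. Adipoq, the hormone adiponectin, was at 2.66 to 8.37 CPM (median 5.81) in RGRN-305 mice, 1.62 to 5.23 CPM (median 3.32) in MC903 mice and 15.8 to 28.6 CPM (median 20.9) in vehicle mice (-1.88 ± 0.21, adjusted p = 2.24e-08). RGRN-305 mice were nearer to vehicle than MC903 mice for 11 of the 17 muscle genes and 13 of the 19 fat genes at an adjusted p below 0.05, against 18.6% of all genes tested. Cyp2e1, a cytochrome P450, was at 0.145 to 0.453 CPM (median 0.251) in RGRN-305 mice, 0 to 0.236 CPM (median 0.0533) in MC903 mice, 24.3, 11.6, 6.61 and 16.6 CPM in dexamethasone mice and 1.95 to 11.3 CPM (median 3.32) in vehicle mice (-4.04 ± 0.44, adjusted p = 1.99e-08). Gkn3, a gastrokine named after its value was seen, was at 0 to 0.0484 CPM (median 0) in RGRN-305 mice and 0.145 to 0.563 CPM (median 0.465) in vehicle mice, with 1 count over all RGRN-305 mice and 71 over all vehicle mice, and the pooled vehicle level was 77.7 times that of RGRN-305 mice (exact 95% interval 13.5 to 3113). The share of muscle, fat or cartilage in each biopsy was not measured.

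Matrix, cartilage and nerve genes were lowered in both groups. Among all genes tested, 29.5% passed lower and 30.3% higher under RGRN-305. All 11 cartilage genes passed lower, with a median of -1.34, against -1.21 in MC903 mice. All 10 Schwann cell and nerve genes passed lower, with a median of -1.15, against -1.27. Of 15 collagens 13 passed lower, with a median of -1.21, against -0.95. Col14a1, a fibril-associated collagen, was at 8.94 to 18.7 CPM (median 13.1) in RGRN-305 mice, 5.49 to 15.1 CPM (median 10.8) in MC903 mice and 32.1 to 60.2 CPM (median 42.2) in vehicle mice (-1.74 ± 0.18, adjusted p = 6.77e-09). Among the largest falls that were held were Btnl9, a butyrophilin-like protein (-2.60 ± 0.19, adjusted p = 8.86e-12), C1qtnf3, a secreted C1q-related protein (-2.60 ± 0.27, adjusted p = 5.71e-09), Emilin3, an elastin-associated protein (-2.47 ± 0.21, adjusted p = 1.2e-10), Pkhd1l1 (-2.45 ± 0.25, adjusted p = 3.92e-09) and Kcna1, a potassium channel (-2.34 ± 0.24, adjusted p = 3.12e-09). RGRN-305 and vehicle mice did not overlap for any of these 5, which the rule for naming them required. Opcml, a cell adhesion protein, remained at -2.67 ± 0.24 (adjusted p = 2.38e-10). Of 23 Wnt ligands and modulators 16 passed lower and 3 higher. Wnt2 was lower by -2.79 ± 0.31 (adjusted p = 1.32e-08), and Sfrp4, a secreted Wnt antagonist, was lower than in vehicle by -2.50 ± 0.31 (adjusted p = 9.05e-08) and lower than in MC903 mice by -1.14 ± 0.31 (adjusted p = 0.00401).

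**Figure D4:**
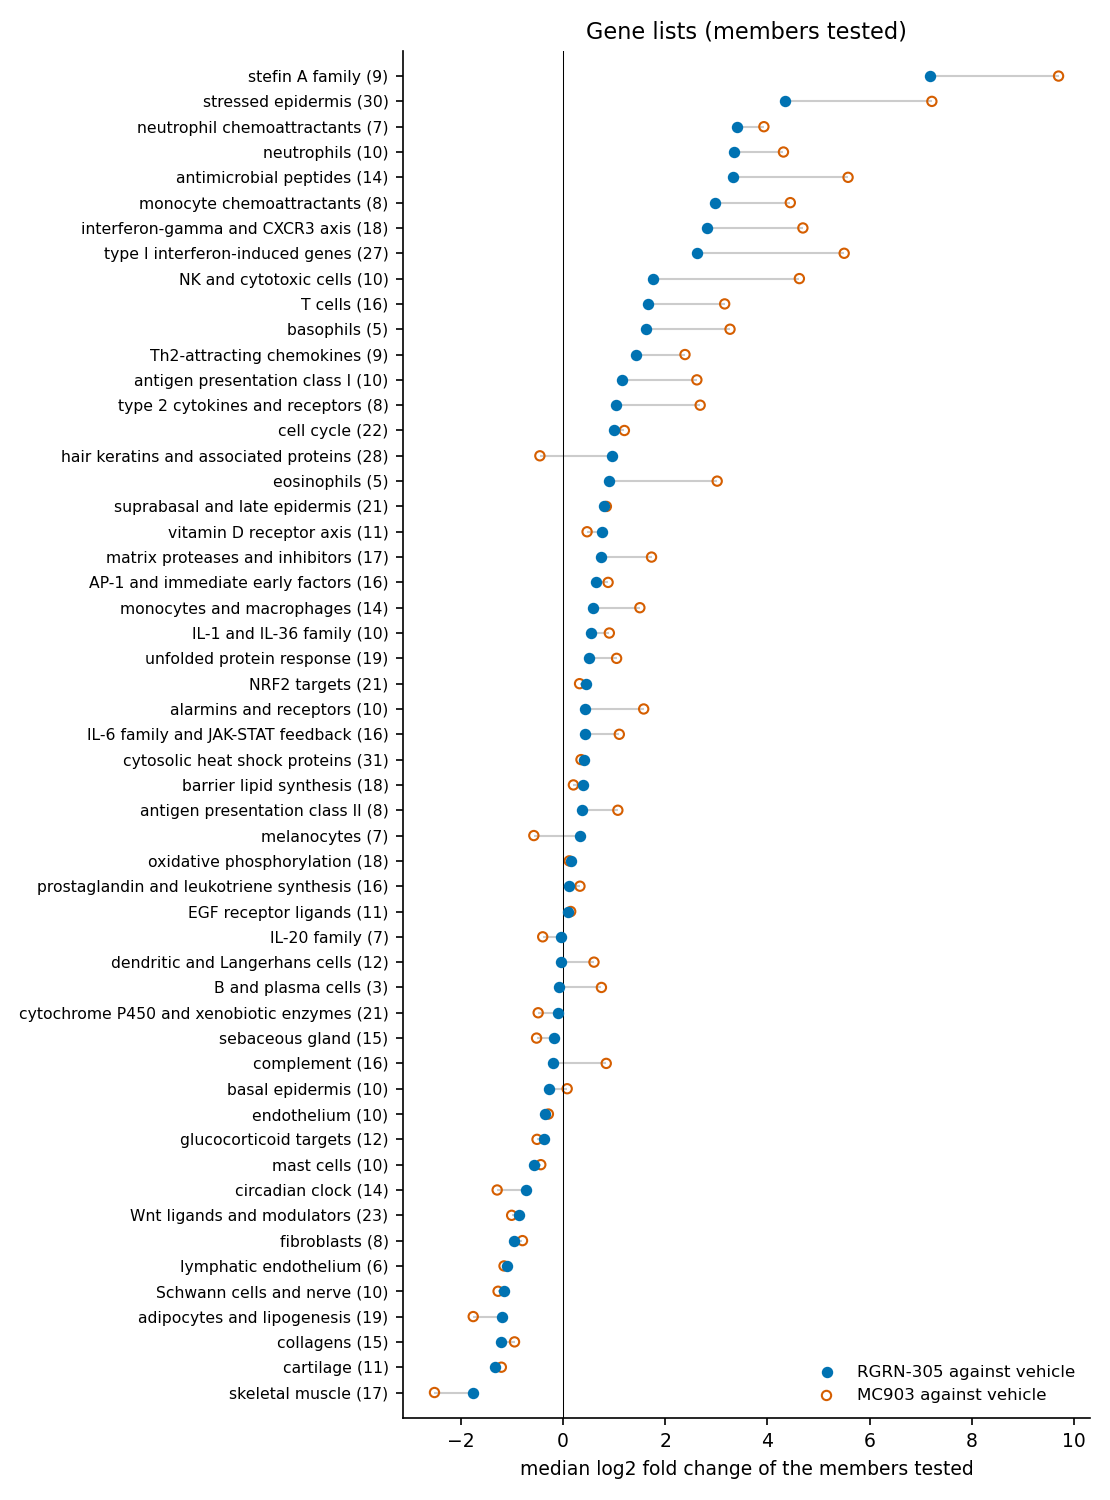
Each row is 1 of 53 gene lists, with the median log2 fold change against vehicle of its tested members in RGRN-305 mice (filled points) and in MC903 mice (open points). Stefins, stressed epidermis, neutrophil and antimicrobial lists lie furthest to the right under RGRN-305, and muscle, cartilage, collagen and fat lists lie to the left of zero in both groups.

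Few genes met a strict rule for a strong change only with the drug. Of the 802 genes called higher, 77 were not called in MC903 mice, and 48 of these passed in the same direction there (34.5% of all genes tested passed higher in MC903 mice). Of the 812 called lower, 106 were not called in MC903 mice and 91 passed there (35.7% of all genes passed lower). Against MC903 mice, 44 of the 77 passed higher and 19 of the 106 passed lower, beside 18.6% and 19.4% of all genes tested. Genes counted as changed only with the drug were called against vehicle, differed from MC903 mice in the same direction at an adjusted p below 0.05 and had an MC903 interval inside 2-fold. There were 6 higher (0.0298% of the genes tested) and 2 lower (0.00992%). The interval rule also leaves out genes with a wide MC903 interval, so these counts do not show how rare such changes are. The count of lower genes was 4 without RGRN-305 mouse 1 and 1 without any of vehicle mice 3 to 6 or MC903 mice 1, 2, 4, 5 or 8.

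Btc, the EGF receptor ligand betacellulin (chromosome 5, 91505120 to 91550883 in GRCm39), was at 4.33 to 10.1 CPM (median 8.47) in RGRN-305 mice, 1.41 to 2.72 CPM (median 1.9) in MC903 mice, 3.27, 2.33, 1.79 and 2.98 CPM in dexamethasone mice and 1.53 to 3.83 CPM (median 2.51) in vehicle mice. It was higher than in vehicle by 1.71 ± 0.21 (adjusted p = 6.15e-08), than in MC903 mice by 1.96 ± 0.19 (adjusted p = 1.22e-08) and than in dexamethasone mice by 1.61 ± 0.24 (adjusted p = 6.27e-06). Every RGRN-305 mouse was above every mouse of the other groups. Pgbd5, a gene derived from a piggyBac transposase, showed the largest difference of the 6, at 1.59 to 3.73 CPM (median 2.5) in RGRN-305 mice, 0.0943 to 0.475 CPM (median 0.209) in MC903 mice, 0.573, 0.562, 0.308 and 0.921 CPM in dexamethasone mice and 0.132 to 0.434 CPM (median 0.271) in vehicle mice (3.25 ± 0.31 against vehicle, adjusted p = 1.31e-09, and 2.06 ± 0.34 against dexamethasone, adjusted p = 2.12e-05). Zfp365, a zinc finger protein, was at 15.3 to 33.3 CPM (median 17.5) in RGRN-305 mice, 7.79 to 9.64 CPM (median 8.35) in MC903 mice and 5.33 to 8.19 CPM (median 6.46) in vehicle mice (1.68 ± 0.16, adjusted p = 5.24e-10), but dexamethasone mice were at 26.1, 22.4, 16.2 and 24.2 CPM, also above vehicle (1.77 ± 0.17, adjusted p = 1.41e-09). Sgsm1, a regulator of small GTPases, was at 2.34 to 12.2 CPM (median 4) in RGRN-305 mice, 1.01 to 3.72 CPM (median 1.53) in MC903 mice and 1.53 to 1.82 CPM (median 1.69) in vehicle mice (1.65 ± 0.33, adjusted p = 0.000125, and 1.355 without RGRN-305 mouse 5). Ubxn10, of the UBX domain proteins, and Ush1g, a scaffold protein of hair cells of the inner ear, were higher by 1.75 ± 0.26 (adjusted p = 1.45e-06) and 1.78 ± 0.29 (adjusted p = 5.85e-06), and both were also above vehicle in dexamethasone mice (0.93 ± 0.30, adjusted p = 0.0107, and 1.35 ± 0.33, adjusted p = 0.000981). The lower genes were Siglech, a receptor of plasmacytoid dendritic cells, at 0.696 to 1.59 CPM (median 0.902) in RGRN-305 mice, 1.85 to 7.34 CPM (median 4.04) in MC903 mice, 0.245, 0.994, 1.38 and 0.737 CPM in dexamethasone mice and 2.32 to 3.99 CPM (median 2.87) in vehicle mice (-1.54 ± 0.28, adjusted p = 3.44e-05), and the unannotated Gm5532 (-1.65 ± 0.46, adjusted p = 0.00319). Siglech fell short of the fold limit without vehicle mouse 5 (-1.46) or RGRN-305 mouse 3 (-1.48), and Gm5532 without vehicle mouse 6 (-1.37). Pgbd5, Ubxn10, Ush1g and Gm5532 were below the level set for named genes and were named after their values were seen.

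**Figure D5:**
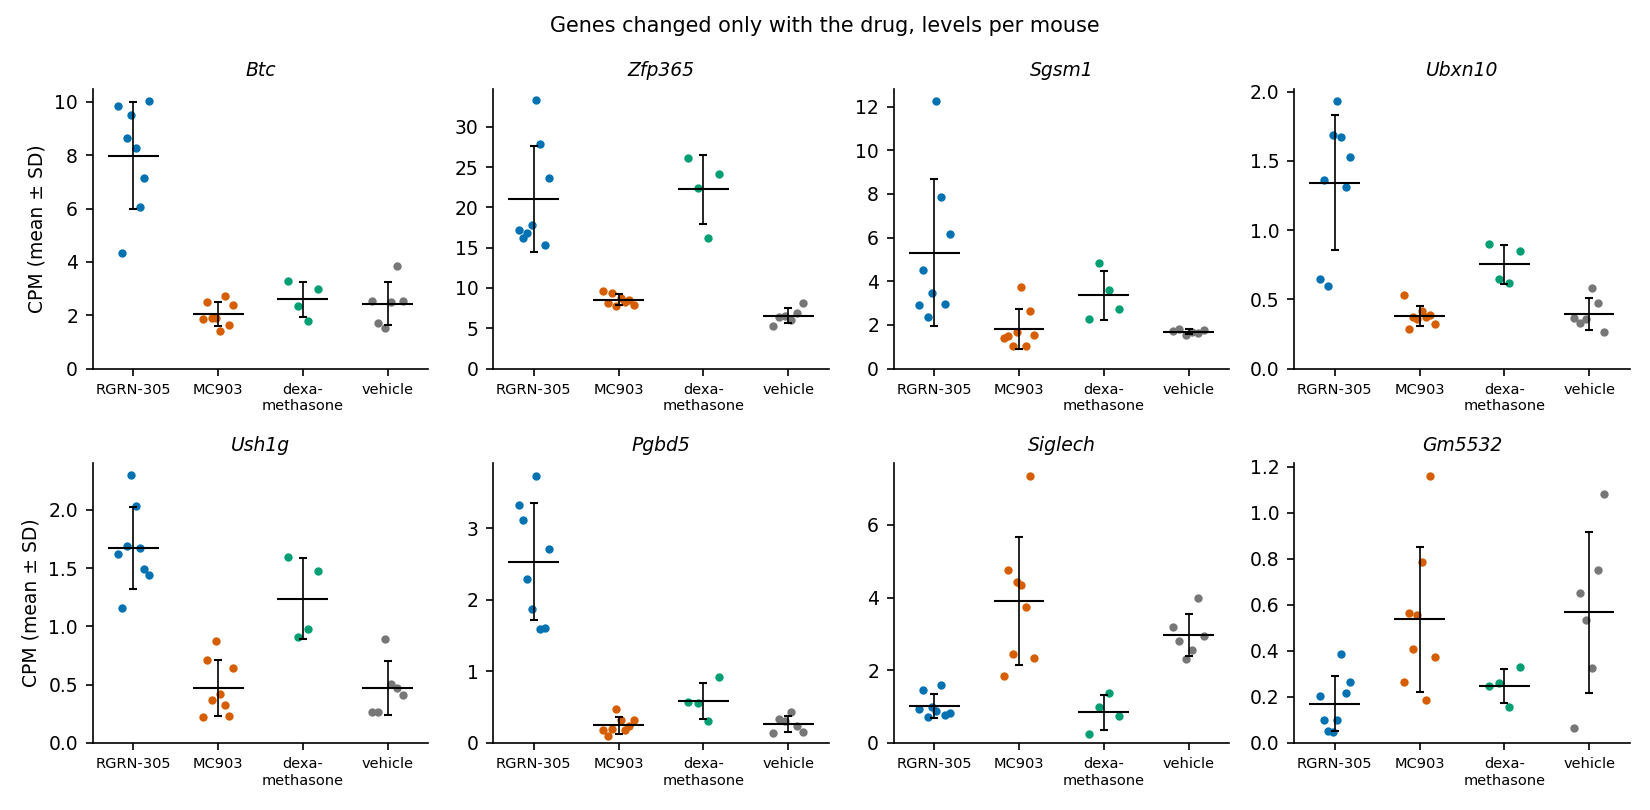
Each point is the CPM of 1 mouse, with the mean and SD as line and bar, for the 8 genes changed only with the drug in RGRN-305 (n = 8), MC903 (n = 8), dexamethasone (n = 4) and vehicle (n = 6) mice. In Btc and Pgbd5 the RGRN-305 mice stand above the other 3 groups, while in Zfp365 and Siglech the dexamethasone mice stand with them.

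Without the fold limit, 713 genes (3.54%) were higher and 517 (2.56%) lower by the same rule, mostly by small amounts, with medians of 0.467 and -0.540. In dexamethasone mice the same genes had medians of 0.292 and -0.399 against vehicle, and in MC903 mice 0.103 and -0.0474. The rule does not look at dexamethasone mice. It keeps genes that MC903 changed by less than 2-fold, and 233 of the 713 and 146 of the 517 also passed in the same direction in MC903 mice. Among them were Hspa1a, Hspa1b and Hsp90ab1, of the heat shock genes that HSP90 inhibitors are known to induce. Hspa1a, an inducible HSP70, was at 122 to 177 CPM (median 165) in RGRN-305 mice, 70.1 to 114 CPM (median 95.4) in MC903 mice and 94.4 to 121 CPM (median 102) in vehicle mice (0.55 ± 0.10 against vehicle, adjusted p = 2.7e-05). The lowest RGRN-305 mouse was just above the highest vehicle mouse. Its near-identical copy Hspa1b was higher by 0.51 ± 0.09 (adjusted p = 1.49e-05), and reads may be split between them. Hsp90ab1, the constitutive HSP90 beta, was at 1552 to 1865 CPM (median 1658) in RGRN-305 mice, 1300.2 to 1436 CPM (median 1386) in MC903 mice and 1022 to 1109.9 CPM (median 1071) in vehicle mice (0.66 ± 0.06, adjusted p = 1.16e-10). The constitutive HSP70 Hspa8 rose the most of these, to 331 to 500.4 CPM (median 415) in RGRN-305 mice, against 264 to 347 CPM (median 285) in MC903 mice and 149.8 to 176 CPM (median 169) in vehicle mice (1.32 ± 0.10, adjusted p = 5.39e-12), but did not meet the rule, as it was also above vehicle in MC903 mice (0.81 ± 0.09, adjusted p = 1.19e-08, interval 0.62 to 1.01). Dnajb1, a HSP40 cochaperone, was higher than in vehicle by 0.59 ± 0.06 (adjusted p = 3.91e-09) and differed from MC903 mice by 0.00 ± 0.06 (interval -0.11 to 0.12). Hspb1, the small heat shock protein HSP27, differed from vehicle by -0.10 ± 0.09 (adjusted p = 0.362, interval -0.28 to 0.09) and was lowered in MC903 mice (adjusted p = 7.59e-11, interval -1.18 to -0.82). Of 31 heat shock genes, 19 passed higher and 4 lower, beside 30.3% and 29.5% of all genes tested, and none was called. In MC903 mice, 18 of them passed higher and 8 lower against vehicle. Between RGRN-305 and MC903 mice, 12 passed higher and 5 lower, beside 18.6% and 19.4% of all genes. The median against vehicle was 0.41 in RGRN-305 mice and 0.35 in MC903 mice.

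Cell cycle genes stayed above vehicle, while genes of the basal epidermis split. All 22 cell cycle genes passed higher and none was called, with a median of 0.99, against 1.20 in MC903 mice. Of 10 genes of the basal epidermis, 2 passed higher and 5 lower, with a median of -0.28, against 0.08 in MC903 mice. Over all genes tested, 30.3% passed higher and 29.5% lower. Krt10, with the levels given above, was higher than in vehicle by 0.71 ± 0.12 (adjusted p = 8.04e-06) and than in MC903 mice by 0.30 ± 0.11 (adjusted p = 0.0283). Loricrin, the main protein of the cornified envelope, was at 6125 to 9031 CPM (median 7931) in RGRN-305 mice, 5037 to 7071 CPM (median 6064) in MC903 mice and 4096 to 6571 CPM (median 4704) in vehicle mice (0.67 ± 0.11, adjusted p = 3.77e-06). Of 8 fibroblast genes, 7 passed lower, with a median of -0.96, against -0.79 in MC903 mice. Lum, the proteoglycan lumican, Pdgfra, a growth factor receptor of fibroblasts, and Postn, the matrix protein periostin, were lower than in vehicle by -0.75 ± 0.10 (adjusted p = 5.89e-07), -0.74 ± 0.11 (adjusted p = 2.83e-06) and -0.69 ± 0.11 (adjusted p = 4.85e-06), and lower than in MC903 mice by -0.31 ± 0.10 (adjusted p = 0.0136), -0.43 ± 0.11 (adjusted p = 0.00181) and -0.39 ± 0.10 (adjusted p = 0.00353). In dexamethasone mice Postn was lower still, at 46.2, 74.4, 66 and 73.3 CPM, against 448 to 713 CPM (median 562) in vehicle mice. Of 7 melanocyte genes, 3 passed higher and 2 lower against vehicle, beside 30.3% and 29.5% of all genes tested. Pmel, of the melanosome, was at 38.7 to 116 CPM (median 68.6) in RGRN-305 mice, 21.6 to 35.7 CPM (median 31.6) in MC903 mice and 34.4 to 55.9 CPM (median 42.8) in vehicle mice (0.62 ± 0.23, adjusted p = 0.0217), and its pass was lost without vehicle mouse 3 or 4 or RGRN-305 mouse 5, with an adjusted p of up to 0.0609. Tyr, of melanin synthesis, lost its pass for 8 of the 22 mice left out in turn (vehicle mice 1, 3, 4 and 5 and RGRN-305 mice 2, 3, 4 and 5), with an adjusted p of up to 0.0992. One gene, the unannotated Gm37819, was lowered by MC903 (adjusted p = 0.00157, interval -2.32 to -0.68) and passed higher under RGRN-305 (1.13 ± 0.34, adjusted p = 0.00492), at 0.387 to 1.44 CPM (median 1.07) in RGRN-305 mice, 0 to 0.48 CPM (median 0.153) in MC903 mice and 0.335 to 0.543 CPM (median 0.49) in vehicle mice.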

How the data were processed

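Library RNA came from 26 ears, 1 mouse each. Per the labels and the study's methods, libraries were made from 100 ng of total RNA with a strand-specific kit, and the authors aligned read pairs to GRCm39 with Subread (v. 2.10.3) and counted uniquely aligned reads per gene. The strand setting of that counting is not given in the sources used here, so reads of overlapping or antisense genes cannot be told apart. The deposited table holds raw counts, which limit genes of low level most. Symbols came from GENCODE (56310 of 57010 identifiers), and 700 identifiers with 0.0631% of the counts had none.

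The gene counts went into edgeR (v. 4.0.16), run under R (v. 4.3.3). The filter filterByExpr (minimum count 10, minimum total 15) kept 20167 genes, TMM factors scaled the libraries, and 1 robust quasi-likelihood model held a mean for every group, over all 26 libraries together. The Benjamini-Hochberg method adjusted p-values over the genes of each comparison. Standard errors and 95% intervals came from the same fit. Python (v. 3.11.15) with pandas (v. 2.3.3) served for tables and promoter searches. The fits were tested on simulated data. DESeq2 (v. 1.42.0), other filters and limits, and each mouse left out were alternatives. Groups and mouse numbers came from the sample titles. The numbers were treated as names, since RGRN-305 and vehicle mice of 1 number deviated with correlations of -0.14 to 0.158. Nothing says whether mice shared a cage or litter.

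The members and the 53 gene lists (754 members, 717 tested) were written with earlier results of these data known. Named genes were the 5 largest changes of each class at a mean log2 CPM of 2 or more and with no overlap, up to 4 members of each list of smallest p, the study's Il1b, Il4, Il6, Il13, Hspa1a and Hspb1, and Cyp24a1. Other genes were named for their known function after their values were seen. The classes of held genes and of changes only with the drug at any fold were added after the data were seen. Promoters were RefSeq sequences of GRCm38.p6. Coordinates are GRCm39 otherwise. Some genes that the rule named are not reported here.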

Additional observations from a re-analysis of the deposited data

Results flagged for a closer look

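In 11 of 236 groups of 6 or 8 mice, 1 mouse stood far from the others for a named gene, where a rate of 1 in 20 gives 11.8. In vehicle mice, mouse 2 had the lowest Flg2 (1409.6 CPM, the next mouse 1945 CPM), the highest Il36g (54.4 CPM, the next 43.5 CPM) and the highest Loricrin (6571 CPM, the next 4855 CPM), 3 epidermal genes of the same mouse. Vehicle mouse 4 had the lowest Gkn3 (0.145 CPM, the next 0.395 CPM), Gzmb at 0 CPM (the next 0.102 CPM) and the only Cyp24a1 reads in the group (0.687 CPM). Vehicle mouse 6 had the highest Mcpt8 (0.149 CPM, the next 0.0331 CPM) and the only Il19 reads (0.0744 CPM). Vehicle mouse 1 had the lowest Lrtm2 (0.0331 CPM, the next 0.253 CPM). In RGRN-305 mice, mouse 2 had the highest Dapl1 (217 CPM, the next 154 CPM) and mouse 5 the only Gkn3 reads (0.0484 CPM).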

How the results depend on the processing

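Counts are given as higher and lower, for calls against vehicle 802 and 812, for remaining genes 725 and 706, for genes back near vehicle 129 and 47, for genes changed only with the drug 6 and 2, and for genes further changed 26 and 2. Without a filter on low counts, 1362 genes were called lower, 378 raised genes were back, 15 and 4 changed only with the drug and 1 was lowered further. With a mean normalized count above 25, the calls were 533 and 495, 461 lowered genes remained, 29 were back, and 3 and 1 changed only with the drug, since fewer genes were tested. With no fold limit, the calls were 6119 and 5956, those remaining 5151 and 5249, those back 1349 and 1624, those only with the drug 436 and 305 and those further changed 297 and 186. When edgeR's glmTreat had to show a fold beyond the limit, the calls were 353 and 77 (82.09% higher, against 49.69%), those remaining 332 and 71, those back 44 and 7, those only with the drug 1 and 0 and those further changed 17 and 0. With an interval inside 1.5-fold, 10 and 3 genes were back, and 0 and 0 changed only with the drug. With the program taken from vehicle mice 1 to 3 and RGRN-305 compared with mice 4 to 6, so that no vehicle mouse was shared, 10 and 9 genes changed only with the drug and 1 was lowered further. With the vehicle mice exchanged, 421 lowered genes remained, 81 and 78 were back and 1 was lower only with the drug, and the cause was not tested. In these fits with 3 vehicle mice, 44.29% and 61.76% of the calls were higher.

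Genes lowered further were 1 with DESeq2, with its size factors, with dexamethasone mice left out of the fit, and with a replicate block on mouse number, which moved no other count by over 1.5 times. DESeq2 called 1043 and 1104 genes, of which 799 and 792 were shared with edgeR. Leaving out each of 22 mice gave 753 to 865 and 714 to 932 calls, 677 to 744 and 616 to 814 remaining, 114 to 155 and 36 to 56 back, 6 to 8 and 1 to 4 only with the drug, and 22 to 27 and 0 to 3 further changed. For 275 genes under the alternatives, 8413 values kept their direction and side of the threshold, 48 no longer passed, 30 newly passed and 11 changed sign. Those that changed sign had not passed in either fit. They were the gene H2-Q5 (-0.0878) and the gene Pgf (-0.21) with the program from vehicle mice 1 to 3, H2-Q5 without RGRN-305 mouse 6 (-0.0367, up to 0.27 without another mouse), and the B cell gene Cd79b with vehicle mice exchanged (0.30) and without vehicle mouse 6 (0.0518), RGRN-305 mouse 1 (0.000586) or RGRN-305 mouse 3 (0.0241). The gene Wfdc18, back near vehicle level, was at 0.46 with the program from vehicle mice 1 to 3, at 0.0263 and 0.0446 without vehicle mouse 2 or 3 (-0.26 to 0.0446 over all mice left out) and at 0.0472 without the 2 shallowest libraries. Leaving out the 2 shallowest libraries moved no count by over 1.5 times.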

Other observations

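Genes of lipid mediators, matrix turnover and oxidant defence moved in both directions against vehicle. So did all genes tested, of which 30.3% passed higher and 29.5% lower. Ptges, the inducible prostaglandin E synthase, was at 237 to 371 CPM (median 319.9) in RGRN-305 mice, 334 to 454 CPM (median 424) in MC903 mice and 64.1 to 90.1 CPM (median 75.2) in vehicle mice (2.03 ± 0.10 against vehicle, edgeR adjusted p = 9.66e-16), and was higher in 8 of 8 RGRN-305 mice than in any vehicle mouse. Alox15, a lipoxygenase of eosinophils and macrophages, was at 1.27 to 3.7 CPM (median 2.98) in RGRN-305 mice, 3.31 to 7.07 CPM (median 4.06) in MC903 mice, 0, 0.346, 0.82 and 0.184 CPM in dexamethasone mice and 0.0662 to 0.707 CPM (median 0.546) in vehicle mice (2.57 ± 0.39 against vehicle, edgeR adjusted p = 2.92e-06). Of 16 genes of prostaglandin and leukotriene synthesis, 8 passed higher and 5 lower, and by the rule for changes only with the drug at any fold Ptgds was higher and Alox5, Hpgds and Ltc4s lower. Of 17 matrix proteases and inhibitors, 9 passed higher and 4 lower, with a median of 0.74, against 1.73 in MC903 mice. Mmp13, a collagenase, was at 12.6 to 67.2 CPM (median 33.2) in RGRN-305 mice, 35.4 to 87.3 CPM (median 60.8) in MC903 mice and 0.13 to 0.484 CPM (median 0.198) in vehicle mice (7.01 ± 0.49, edgeR adjusted p = 5.82e-11), while the protease inhibitor Timp3 was lower, at 155 to 260.5 CPM (median 180.5) in RGRN-305 mice, 164 to 208 CPM (median 179) in MC903 mice and 497 to 616 CPM (median 534) in vehicle mice (-1.47 ± 0.10, edgeR adjusted p = 3.89e-12). Of 21 targets of NRF2, the factor of oxidant defence, 12 passed higher and 5 lower, with a median of 0.45, against 0.32 in MC903 mice. Hmox1, the inducible heme oxygenase, was higher by 1.32 ± 0.07 (edgeR adjusted p = 4.56e-14), and Gpx2, a glutathione peroxidase of epithelia, by 2.14 ± 0.18 (edgeR adjusted p = 1.42e-10) without passing against MC903 (0.14 ± 0.15, edgeR adjusted p = 0.513).

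Sebaceous gland genes were mostly higher than in MC903 mice. Of 15 tested, 7 passed lower and 1 higher against vehicle, and 10 passed higher and none lower against MC903, at an edgeR adjusted p below 0.05. Over all genes tested, 30.3% passed higher and 29.5% lower against vehicle, and 18.6% and 19.4% against MC903. Scd1, a desaturase of sebum and fat, was at 2361 to 3306 CPM (median 2700.1) in RGRN-305 mice, 1622 to 2125 CPM (median 1851) in MC903 mice and 4744 to 5756 CPM (median 5236) in vehicle mice (-0.92 ± 0.09 against vehicle, edgeR adjusted p = 1.11e-09). The gene that passed higher was Awat2, a wax ester synthase of sebaceous glands, at 11.6 to 19.2 CPM (median 14) in RGRN-305 mice, 5.87 to 10.5 CPM (median 7.09) in MC903 mice, 5.69, 5.66, 4.51 and 6.81 CPM in dexamethasone mice and 5.14 to 9.43 CPM (median 6.55) in vehicle mice (1.11 ± 0.15 against vehicle, edgeR adjusted p = 4.59e-07). It was higher in 8 of 8 RGRN-305 mice than in any mouse of the other groups, and so stood further from vehicle than in MC903 mice. Of 6 lymphatic genes 5 passed lower, among them Prox1, the master regulator of lymphatic identity, at 1.33 to 4.01 CPM (median 2.12) in RGRN-305 mice, 1.33 to 3.14 CPM (median 2.02) in MC903 mice and 5.28 to 9.2 CPM (median 6.26) in vehicle mice (-1.61 ± 0.21, edgeR adjusted p = 2.1e-07).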
